A study of Mus musculus with 3 samples.

Results

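The SLAM family genes Slamf1, Slamf6, Slamf7, Cd48, Cd84 and Ly9, together with Sh2d1a, were followed through the open chromatin of CD4+ T cells from mouse lymph nodes. Sh2d1a is the gene of SAP, an adaptor of most of these receptors. A peak is a stretch of DNA that the transposase of ATAC-seq cut more often than its surroundings, and peaks of the 3 libraries that shared at least 1 bp were merged into regions. A region belonged to one of the 7 genes when that gene had the nearest RefSeq protein-coding span within 100 kb. This gave 45 of 57457 regions, 43 at the cluster of 6 genes on chromosome 1 and 2 at Sh2d1a on chromosome X. The rule takes any called region by its position, whichever library called it and however strong it was.

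Naive CD4+ T cells of CBir1 transgenic mice, whose receptor recognises a bacterial flagellin, were labelled with the division dye CellTrace Violet and transferred into 4 wild-type C57BL/6J recipients. All recipients drank 2% dextran sulfate sodium, which injures the colon epithelium, for 7 days from the day after transfer. They received 1 mg/kg FTY720, a drug that holds lymphocytes in lymph nodes, on days 7, 10 and 13 of that schedule, and the nodes draining the colon were taken on day 14, counted from the first day of dextran sulfate. The divided library came from CBir1 cells that had diluted the dye, the undivided library from CBir1 cells that had kept it, and the polyclonal library from the recipients' own CD4+ T cells. Cells of 2 mice were pooled, pools were made in duplicate, and 1 peak list per fraction was analysed here. Every group is thus 1 library with no untreated counterpart, so differences are between libraries, without replicates or p-values. No source used here gives the age of the mice. The polyclonal library holds all CD4+ T cells of the recipients, whatever their subset.

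SLAM family receptors are immunoglobulin-like surface proteins of lymphocytes and other blood cells, and most of them bind the same receptor on a neighbouring cell. In most of them the tail carries tyrosine motifs that are bound by SAP, a small SH2-domain protein that brings in the kinase Fyn. In CD4+ T cells SAP and its receptors are known for prolonged contact with B cells and for help in germinal centres. CD48 differs from the others in having a lipid anchor in place of a tail, and it binds CD244 and, in mice, CD2.

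The promoters show where the signal sits at these genes. The RefSeq promoter table (GRCm38.p6, the assembly of mm10) held 5 of the 7 genes, each with a window of 300 bases around the start site. In the windows of Slamf7, Cd48, Slamf1 and Slamf6 a region called in all 3 libraries covered every base, and in the window of Cd84 no library had a peak. Over all genes only a looser measure was taken, that a peak of each library overlapped any base of the window. It held for 48.8% of 21262 promoters of protein-coding genes. All 5 windows were poor in CG dinucleotides, with 7 at Cd48, 4 at Slamf1, 3 at Slamf7, 3 at Cd84 and 1 at Slamf6, against a median of 13 over all promoters. Their GC content ran from 39% at Slamf7 to 49% at Slamf1, below the median of 56.3% over all promoters.

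The windows of Slamf7 and Cd84 are shown because both hold the AP-1 letters TGANTCA and a peak covered only the first, and that of Cd48 because it had the most CG dinucleotides. Capitals mark matches to any motif searched on both strands.
Slamf7, chr1:171648950-171649249, minus strand: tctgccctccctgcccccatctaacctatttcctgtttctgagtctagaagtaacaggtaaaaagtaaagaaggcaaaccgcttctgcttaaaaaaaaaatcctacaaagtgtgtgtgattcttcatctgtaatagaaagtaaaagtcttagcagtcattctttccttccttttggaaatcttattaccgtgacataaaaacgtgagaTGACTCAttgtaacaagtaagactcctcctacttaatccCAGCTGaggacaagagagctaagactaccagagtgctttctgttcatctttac
Cd84, chr1:171839447-171839746, plus strand: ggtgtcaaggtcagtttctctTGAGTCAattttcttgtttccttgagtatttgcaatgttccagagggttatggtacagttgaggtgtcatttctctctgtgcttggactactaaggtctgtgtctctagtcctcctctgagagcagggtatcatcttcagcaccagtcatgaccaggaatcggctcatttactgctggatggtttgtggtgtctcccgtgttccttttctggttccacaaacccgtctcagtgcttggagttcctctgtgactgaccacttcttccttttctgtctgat
Cd48, chr1:171681742-171682041, plus strand: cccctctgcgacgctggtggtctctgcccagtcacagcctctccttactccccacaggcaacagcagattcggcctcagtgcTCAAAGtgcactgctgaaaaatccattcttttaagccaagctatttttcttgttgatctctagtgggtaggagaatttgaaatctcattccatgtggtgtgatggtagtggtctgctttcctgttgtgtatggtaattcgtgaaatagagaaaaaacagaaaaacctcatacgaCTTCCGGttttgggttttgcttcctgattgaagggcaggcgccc

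The AP-1 letters TGANTCA stood in 2 of the 5 windows and in 6.99% of all promoters. The E box CAGCTG stood in 2 windows, those of Slamf7 and Slamf1 (15.6% of all), the TCF/LEF letters TCAAAG in 1 (14.4%) and the ETS letters CCGGAAG in 1 (11.6%), both at Cd48. None of the 5 windows held the Runx letters TGTGGTT, found in 4.71% of all promoters, or the NFAT-like letters TTTTCC, found in 22.3%. The other E box searched, CACGTG, was also in none of them and in 7.84% of all promoters. The same held for the GC box, with the letters GGGCGG, at 46.2% of all promoters, and for the TATA box, searched as TATAAA, at 12.6%. No matches overlapped, and a match describes letters in a window only.

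The 45 regions had called peaks in each library about as often as regions in general. Divided cells had 37 of them (82.2%, Wilson 95% interval 68.7 to 90.7), undivided cells 29 (64.4%, 49.8 to 76.8) and polyclonal cells 34 (75.6%, 61.3 to 85.8). Among all 57457 regions the shares were 82.2%, 71.1% and 75.4%, so each share lay within its counting interval of the general one. All 3 libraries shared 23 member regions (51.1%, 37.0 to 65.0), against 56.9% of all regions. Divided and polyclonal cells alone shared 5 (7.07% of all regions), divided and undivided cells alone 2 (3.96%), and undivided and polyclonal cells alone 2 (3.99%). A single library held 13, of which 7 were in divided cells (14.3% of all regions), 2 in undivided cells (6.3%) and 4 in polyclonal cells (7.49%).

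**Figure D1:**
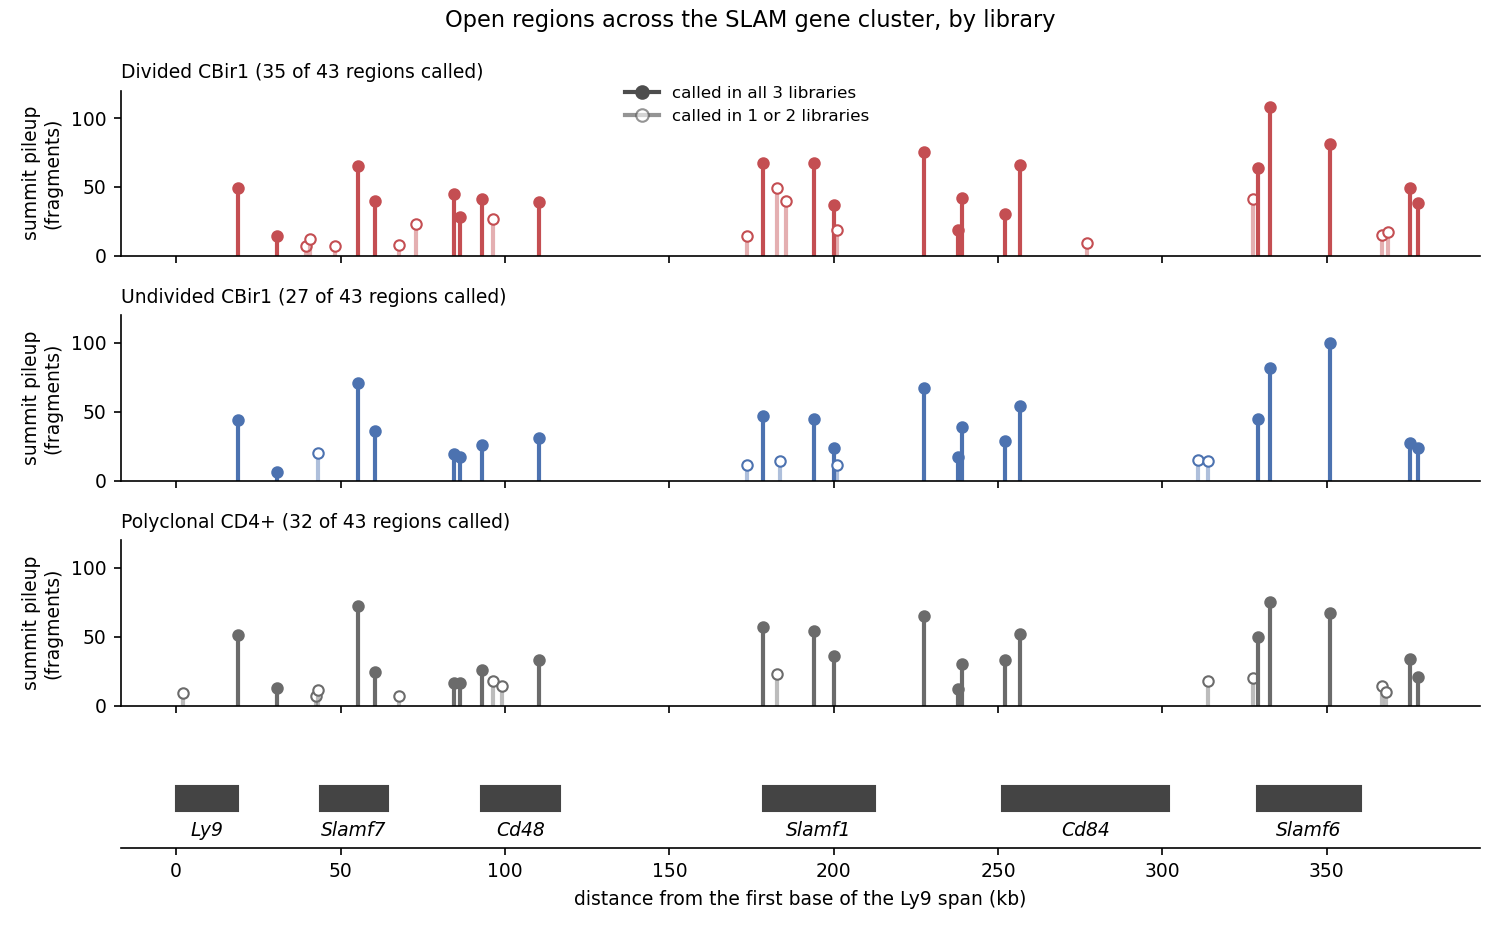
Summit pileup in fragments (vertical axis, unscaled) of every region of the 6 clustered genes, placed by its distance in kb from the first base of the Ly9 span, with gene spans drawn below. Filled points are regions called in all 3 libraries and open points those called in 1 or 2; the tallest bars stand at Slamf6 and no bar stands between Cd48 and Slamf1 over 62514 bp.

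The signal of a region is given as its summit pileup, the number of fragments over the highest peak of that library, as recovered from the deposited fold and −log10 p. Whether the peak caller counted whole fragments or single reads is unknown, and the counted units are called fragments here. A region without a peak is not empty: the weakest called peak had 6 fragments in the divided library and 5 in each of the others. Peaks are called against the local background, so more fragments are needed where that is dense. Before Slamf6, for example, 20 polyclonal fragments on a local background of 7.16 gave a −log10 q of only 2.58. A missing peak at such a place can hide more than 5 or 6 fragments. Pileups rise with depth, so ratios between libraries were divided by the median ratio over the 32680 regions shared by all 3, which was 1.21 for divided over undivided, 1.19 for divided over polyclonal and 0.989 for undivided over polyclonal. By the lowest background the depth ratios were 1.50, 1.40 and 0.933. A member's value is given on that scaling too where its direction or its counting interval turns. A higher pileup can come from more cells with an open site or from more cuts per cell, and these cannot be told apart in bulk material.

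The cluster spans 360346 bp from the first base of Ly9 to the last of Slamf6, in the order Ly9, Slamf7, Cd48, Slamf1, Cd84 and Slamf6. Of the 45 regions, 24 lay inside a member's span (53.3%, against 64.3% of all regions inside a gene's span) and 21 outside. Regions called in all 3 libraries made up 15 of the 24 inside (62.5%, 42.7 to 78.8) and 8 of the 21 outside (38.1%, 20.8 to 59.1). Over all regions these shares were 61.2% and 49.1%, both within the members' counting intervals. Those shared by all 3 were wider, with a median of 739 bp against 488 bp for regions of 2 libraries and 260 bp for regions of 1. The same medians over all regions were 782, 416 and 236 bp. Median pileups of the shared member regions were 45, 36 and 34 in divided, undivided and polyclonal cells. Over all shared regions they were 50, 40 and 41. Summits of shared member regions lay close together, with a median spread over the 3 libraries of 64 bp (4 to 233 bp), against 55 bp for all shared regions. The widest stretch without a region lay between Cd48 and Slamf1 (62514 bp), and the next, 33391 bp, ran from inside Cd84 to beyond its end.

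**Figure D2:**
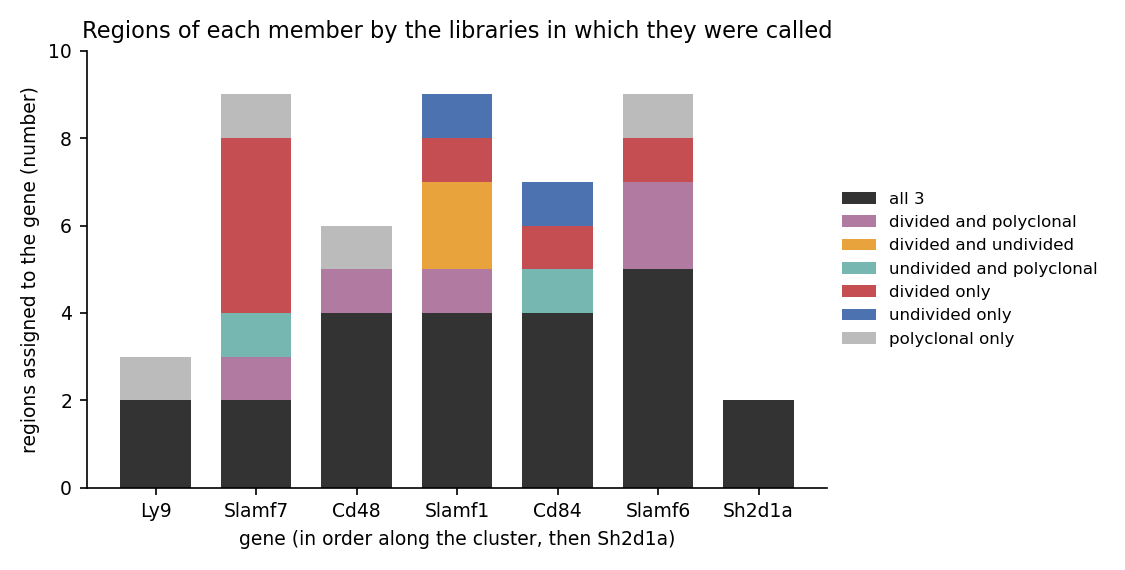
Number of regions assigned to each gene (vertical axis), stacked by the libraries in which a peak was called. Slamf7, Slamf1 and Slamf6 had 9 regions each; Slamf7 had 4 in divided cells only, and both regions of Sh2d1a were called in all 3 libraries. Of all regions, 14.3% were called in divided cells only and 56.9% in all 3 libraries.

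Sh2d1a encodes the adaptor through which most of these receptors signal. Its gene (chrX:42502565-42522097) had 2 regions, both inside the span and both open in every library. The region over the first base of the span (chrX:42502124-42503127) reached 107 fragments in divided cells, 62 in undivided cells and 82 in polyclonal cells, the highest polyclonal value of any member region. The undivided library was the lowest of the 3 at this region. Its ratio to polyclonal cells, scaled by shared regions, was 0.765 with a counting interval that spans 1 (0.541 to 1.08). The divided pileup was 1.43 times the undivided one after scaling by shared regions (counting interval 1.04 to 1.99), which drops to 1.15 (0.836 to 1.60) when scaled by background. Against polyclonal cells the ratio was 1.10 (0.815 to 1.48), and by background 0.935. The second region (chrX:42510970-42511780) had pileups of 28, 18 and 17, with a divided over undivided ratio of 1.29 whose interval, 0.689 to 2.48, spans 1.

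Slamf6 encodes Ly108, a receptor that binds itself and is found on T and B cells. The gene (chr1:171917458-171948958) carried the strongest signal of the cluster, and 5 of its 9 regions were shared by all 3 libraries. The region over its start site (chr1:171917196-171918114) reached 64 fragments in divided cells, 45 in undivided cells and 50 in polyclonal cells. A region centred 4004 bp into the gene (chr1:171920995-171921938) had 108, 82 and 75. Both stood on a dense local background, at 13.7 and 12.4 times the library's lowest value in divided cells, against a median of 3.60 times over the 23 shared member regions. The lncRNA Gm37065 overlaps the start-site region, and the libraries do not tell which transcript a region serves.

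A region deeper in Slamf6 went the other way. At 22026 bp from the start site (chr1:171939064-171939912) divided cells had 81 fragments, undivided cells 100 and polyclonal cells 67, so that undivided cells were highest. This was the lowest divided over undivided ratio of the members, 0.672 (0.495 to 0.909), and 0.541 scaled by background. It was also the only member region whose undivided over polyclonal counting interval lay above 1, with a ratio of 1.51 (1.10 to 2.09). The ratio of divided to polyclonal cells was 1.02 (0.726 to 1.43), and 0.866 (0.619 to 1.22) by background.

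Around the same gene, several regions lacked a peak in undivided cells, which had one at 5 of the 9 Slamf6 regions and at 71.1% of all regions. Of those without, 1 reached a −log10 q of at least 5 in divided cells. A region 963 bp before the span (chr1:171915777-171916495) had 41 fragments in divided cells and 20 in polyclonal cells, with −log10 q values of 11.8 and 2.58. It too lies over Gm37065, and its local background in divided cells was 7.83 times the library's lowest value. Beyond the gene, a region 6189 bp from the span had 15 and 14, one at 7510 bp had 10 in polyclonal cells only, and one at 8188 bp had 17 in divided cells only. The last 2 regions, 14476 and 17011 bp past the span, were open in all 3 libraries, with 49, 27 and 34 fragments and with 38, 24 and 21, in the order divided, undivided, polyclonal. Divided cells had the highest pileup at both, but the counting intervals of all their ratios span 1. The region at 17011 bp was the farthest included. The next one, 26529 bp past the span, was nearer to Vangl2 and was therefore left out, with 22 fragments in divided cells, 7 in polyclonal cells and no undivided peak.

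Slamf1 encodes SLAM itself (CD150), a receptor that binds itself and is known on activated T cells. Its 9 regions (gene at chr1:171767131-171801184) included 7 inside the span. The region over its start site (chr1:171766825-171767507) reached 67 fragments in divided cells, 47 in undivided cells and 57 in polyclonal cells, and the scaled ratio of divided to undivided was 1.18 (0.802 to 1.75), and 0.953 (0.647 to 1.41) by background. The strongest region of Slamf1 lay 14473 bp beyond the gene (chr1:171815657-171816381), with 75, 67 and 65, and the libraries did not differ beyond counting error there. Inside the gene, 15506 bp from the start site, pileups were 67, 45 and 54, and at 21600 bp they were 37, 24 and 36. The region beyond the gene is 23316 bp from Cd84 and went to Slamf1 only by the nearest span.

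Of the 9 Slamf1 regions, 5 lacked a peak in at least 1 library, and over all regions 56.9% had a peak in all 3. A region centred 4099 bp into the gene (chr1:171770962-171771500) held 49 fragments in divided cells and 23 in polyclonal cells at the same summit base, and lacked an undivided peak. Its ratio of divided to polyclonal was 1.79 (1.07 to 3.08), and 1.53 by background with an interval that spans 1 (0.912 to 2.62). At 6866 bp (chr1:171773730-171774267) only divided cells had a peak, of 40 fragments. Its −log10 q of 14.7 was above that of 95.7% of all regions called in divided cells alone. Between these, undivided cells alone had a weak peak (pileup 14, −log10 q 3.46). In divided cells the regions at 4099 and 6866 bp stood on a dense local background, at 8.34 and 6.06 times the library's lowest value. Both CBir1 libraries, and not the polyclonal one, had peaks 4765 bp before the span (14 and 11 fragments) and 22430 bp into the gene (19 and 11).

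Cd84 encodes a receptor that binds itself and is known on follicular helper T cells and B cells. Its gene (chr1:171839697-171890718) had 7 regions, and 4 of them were open in every library. With no peak at the annotated start site, the first region inside the gene (chr1:171840521-171841095) was centred 1111 bp downstream, and had 30 fragments in divided cells, 29 in undivided cells and 33 in polyclonal cells. Next came a region at 5598 bp with 66, 54 and 52, and a pair before the gene, at 11585 and 13127 bp, had 42, 39 and 30 and 19, 17 and 12. No pair of libraries differed beyond the counting interval at any of these 4 regions. A weak region of 9 fragments in divided cells only lay 26082 bp into the gene, over the lncRNA Gm51686. Past the end of the gene, over the pseudogene Gm52945, 2 regions lacked a peak in divided cells. The one at 8561 bp (chr1:171899279-171899524) had a peak in undivided cells alone, of 15 fragments. Its −log10 q of 11.1 was above that of 94.9% of regions called in undivided cells alone. The other, at 11559 bp, had 14 in undivided and 18 in polyclonal cells.

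Ly9 encodes CD229, another receptor that binds itself. It had 3 regions, the fewest of the clustered genes (chr1:171588613-171607410). The region over the last base of its span (chr1:171606876-171607665) had 49 fragments in divided cells, 44 in undivided cells and 51 in polyclonal cells, which overlap within counting error. The region 11579 bp away, toward Slamf7 (chr1:171618989-171619418), had 14, 6 and 13, and undivided cells stood lowest. It had the lowest undivided over polyclonal ratio of the members, 0.467, with an interval from 0.146 to 1.32 that these small counts leave wide. One weak region inside the gene was called in polyclonal cells only (pileup 9, −log10 q 5.28).

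Slamf7 encodes CRACC, a receptor that binds itself and is known on natural killer cells and activated lymphocytes. The gene (chr1:171632403-171653037, minus strand) had the largest share of regions called in 1 library only, 5 of 9. Over all members these were 13 of 45, and over all regions 16146 of 57457. Its start-site region (chr1:171648807-171649369) had 40 fragments in divided cells, 36 in undivided cells and 24 in polyclonal cells, with all counting intervals of the ratios spanning 1. Inside the gene, 5209 bp downstream of the start site (chr1:171643515-171644064), pileups were 65, 71 and 72, and the ratio of divided to polyclonal was the lowest of the members at 0.759 (0.534 to 1.08). The divided over undivided ratio of that region was also 0.759 (0.534 to 1.08). Scaled by background both intervals lay below 1, at 0.647 (0.455 to 0.917) over polyclonal cells and 0.612 (0.430 to 0.869) over undivided cells. On that scaling 16.6% and 24.9% of all regions, in the same order, had intervals below 1.

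On the side facing Cd48, a region 8434 bp from the Slamf7 span (chr1:171661471-171661878) belonged to divided cells alone, with 23 fragments on the lowest background of that library. Its −log10 q of 19.8 was above that of 98.7% of regions called in divided cells alone, the highest such standing among the members. At the other end of the gene, 497 bp beyond the span (chr1:171631383-171631906), undivided cells had 20 fragments, polyclonal cells 11 and divided cells no peak. The ratio of undivided to polyclonal cells, 1.84, was the highest of the members, with an interval from 0.840 to 4.25. The remaining regions of Slamf7 were weak, at 7 to 12 fragments.

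Cd48 encodes the lipid-anchored member, which has no signalling tail and binds CD244 and, in mice, CD2. Its gene (chr1:171681245-171705258) had 6 regions, 4 of them shared. The highest ratios of divided to undivided and of divided to polyclonal cells among the members lay 7920 bp before its span (chr1:171672609-171673325), where divided cells had 45 fragments, undivided cells 19 and polyclonal cells 16. Scaled by shared regions, both divided ratios had counting intervals above 1 there, and the other libraries did not differ beyond counting error. Such intervals were found for 7.53% of all regions over undivided cells and for 6.72% over polyclonal cells. The region is named because its ratios were the highest of the members. The scaled ratio was 1.96 over undivided cells (1.13 to 3.56) and 2.36 over polyclonal cells (1.31 to 4.48), and by background 1.58 (0.907 to 2.87) and 2.01. Its neighbour at 5750 bp had 28, 17 and 16, and the start-site region (chr1:171680997-171682467), the widest of all members at 1471 bp, had 41, 26 and 26. Inside the gene, 2 regions lacked a peak in undivided cells: one had 27 in divided and 18 in polyclonal cells, and one 14 in polyclonal cells only. The local background of the former in divided cells was 4.59 times the library's lowest value. A region 16970 bp from the start site had 39, 31 and 33 with summits within 4 bp of each other. Over the 4 regions called in both CBir1 libraries, Cd48 had 153 fragments in divided and 93 in undivided cells, a scaled ratio of 1.36, and 1.10 by background. That sum includes the region 7920 bp before the span, which was picked for its ratio, so it is no separate result about the gene.

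**Figure D3:**
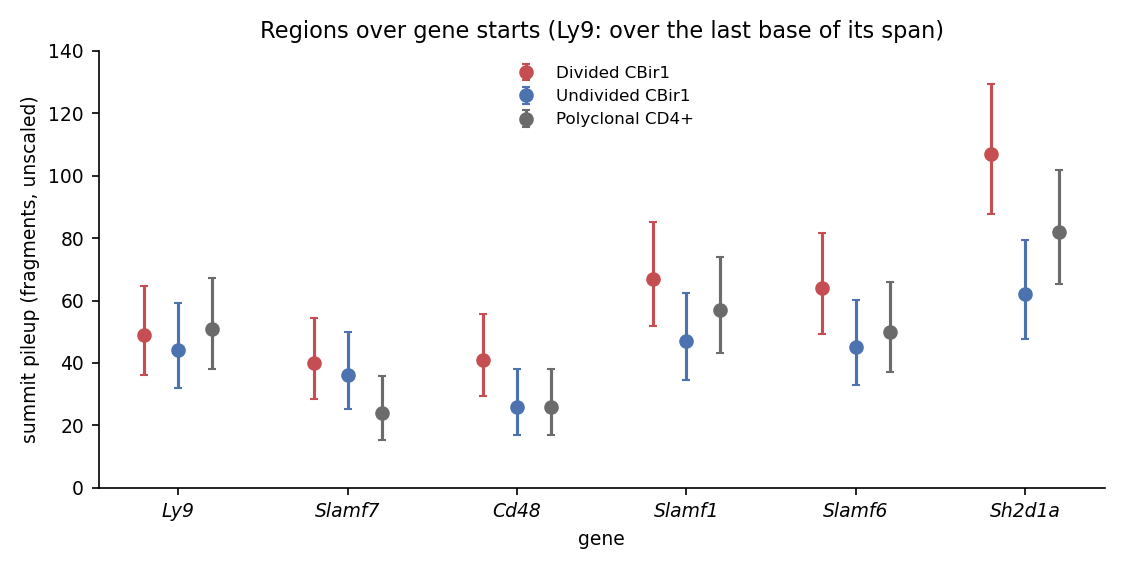
Summit pileup in fragments (vertical axis, unscaled) of the regions over the start of each gene, and for Ly9 over the last base of its span, in the 3 libraries; bars are exact Poisson 95% intervals of counting error. Sh2d1a reaches 107 fragments in divided and 62 in undivided cells, while at the other genes drawn the bars of the libraries overlap. Depth differs between the libraries, and scaled by background the Sh2d1a ratio of divided to undivided was 1.15 (0.836 to 1.60). Cd84 had no peak at its start and is not drawn.

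Comparing divided with undivided cells asks how chromatin differed between cells that had and had not proliferated. A region counted as one-sided when its −log10 q was at least 5 in one library and the other had no peak. Divided cells had 6 such regions and undivided cells 3, against 12.4% and 4.94% of all regions. At the authors' own threshold the counts were 12 (21.4% of all) and 4 (10.3%). The 6 lay at Slamf7 and Slamf1 (2 each) and at Cd48 and Slamf6 (1 each), and the 3 at Cd84 (2) and Slamf7 (1). Of 25 regions called in both, 17 had the higher scaled pileup in divided cells (50.4% of all regions) and 8 the lower (49.6%), and by background 10 were higher (24.6%). The median log2 ratio was 0.24 against 0.00 over all regions, and −0.07 against −0.31 by background, so the direction turns with the scaling. Each scaling divides all regions by the same constant, so the members' distance from the general median cannot change between them. With the authors' fold in place of the pileup, scaled by shared regions, the members' median was −0.096. No member reached a ratio of 2 in either direction (4.28% and 3.44% of all regions), and counting intervals lay above 1 at 2 regions, of Cd48 and Sh2d1a (7.53%), and below 1 at 1, of Slamf6 (7.63%). By background no member interval lay above 1 (2.76% of all), and 2 lay below it, of Slamf6 and Slamf7 (24.9%).

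Comparing divided with polyclonal cells sets the proliferated CBir1 cells beside the mixed CD4+ population. Divided cells had 5 one-sided regions (9.72% of all), at Slamf1 (3) and Slamf7 (2), and polyclonal cells 4 (4.99%), at Ly9, Slamf7, Cd48 and Cd84. At the authors' threshold they were 9 (18.3%) and 6 (11.5%). Of 28 regions called in both, 18 were higher in divided cells (51.9%) and 10 lower (48.1%), and by background 13 were higher (29.9%). The median log2 ratio was 0.12 against 0.02 over all regions, and by background −0.11 against −0.22. One region reached a ratio of 2, that before Cd48 (3.59% of all), and none the opposite (2.22%). Counting intervals were above 1 at 2 regions, that one and the intragenic Slamf1 region (6.72%), and below 1 at none (5.18%). By background they were above 1 at 1 region, that before Cd48 (2.66% of all), and below 1 at 1, that inside Slamf7 (16.6%).

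Comparing undivided with polyclonal cells sets the CBir1 cells that had kept the dye beside the same mixed population. Undivided cells had 1 one-sided region (4.54% of all), at Cd84, and polyclonal cells 5 (6.74%), at Cd48 (2), Ly9, Slamf1 and Slamf6. At the authors' threshold they were 4 (10.3%) and 9 (14.6%). Of 25 regions called in both, 13 were higher in undivided cells (50.5%) and 12 lower (49.5%), by background 15 were higher (59.6%), and the median log2 ratio was 0.02, the same as over all regions. The region beyond the Slamf7 span named above stayed under a ratio of 2, as did every other (1.38% of all), and 1 region, that beyond Ly9, reached 2 in the opposite direction (1.7%). Counting intervals lay above 1 at 1 region, that deep in Slamf6 (3.03%), and below 1 at none (3.02%). The 3 comparisons share libraries and are not independent.

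**Figure D4:**
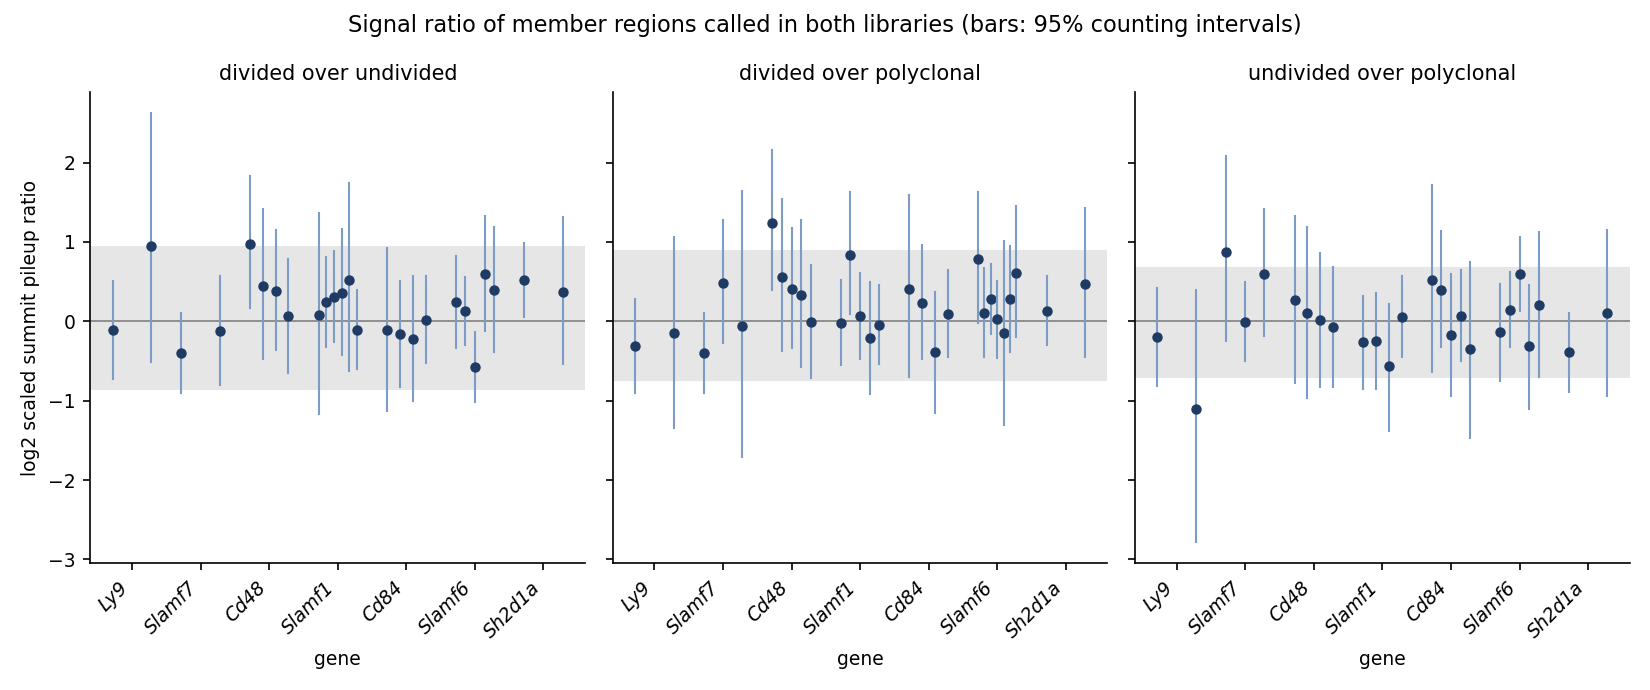
Log2 scaled summit pileup ratio (vertical axis) of each member region called in both libraries of a comparison, by gene; bars are 95% counting intervals and the grey band runs from the 5th to the 95th percentile of all regions. In divided over undivided cells 1 point of Cd48 and 1 of Sh2d1a have intervals above 0, both of which cross 0 when scaled by background, and 1 point of Slamf6 lies below 0 by either scaling.

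Other genes of the pathway were given as a list of 19: receptors outside the members, related adaptors, kinases, phosphatases and the CD48 partner Cd2. Of these, 17 had regions, 174 in all, and Slamf8 and Sh2d1b1 had none. Divided cells had 21 one-sided regions (12.1%, against 12.4% of all regions) and undivided cells 7 (4.02%, against 4.94%). Divided against polyclonal cells gave 13 (7.47%, against 9.72%) and 2 in the other direction (1.15%, against 4.99%). Undivided against polyclonal cells gave 8 (4.6%, against 4.54%) and 4 (2.3%, against 6.74%). Fyn, the kinase that SAP recruits, had 38 regions, of which 9 were one-sided in divided and 1 in undivided cells. Prkcq, the gene of protein kinase C theta, had 3 and 2 among 42 regions, and Ptpn11, the gene of the phosphatase SHP-2, had 4 and 0 among 11. These 3 genes were picked from the list after their values were seen. Scaled by shared regions, the median log2 ratio of the list was 0.02 for divided over undivided, 0.08 for divided over polyclonal and 0.00 for undivided over polyclonal cells. These medians were not computed by background, where those of divided cells would be lower. Cd244a, the receptor gene next to Ly9, had 4 regions, of which the shared one had 56, 39 and 41 fragments in the same library order as above. Cd2 had 17 regions, 12 of them shared, and 1 one-sided region in each direction between divided and undivided cells.

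Among 1060 other genes with at least 10 regions, those whose shares of called regions were nearest to the pooled members by Euclidean distance over the 3 libraries were Mical3, Clpb and Cmah (0.00961, 0.0255 and 0.0255). A distance of at most 0.1 was found for 107 genes, so this pattern is common.

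All 10 CD4 T cell markers had a peak within 1 kb of a gene end in divided cells, and 9, all but Trac, in undivided and in polyclonal cells. Of 10 B cell markers, divided cells had one at 5, undivided cells at 2 and polyclonal cells at 3, with summed pileups of 152, 118 and 130. In all 3 libraries Cd79a (97, 95 and 94) and Cr2 (26, 23 and 25) had one. Cd79b, Ms4a1, Pax5 and Cd22 were among those with none in any library. Several SLAM genes are also active in B cells, and the part of other cells in the values above was not tested. Gene-end peaks were found at 1, 2 and 2 of 8 myeloid markers (summed pileups 27, 40 and 53), at 2, 2 and 1 of 6 natural killer and innate markers (46, 45 and 31) and at 2 of 5 dendritic cell markers in each library (200, 197 and 189). The dendritic cell markers with a peak were Xcr1 (175, 172 and 171) and Flt3 (25, 25 and 18). Of the CD8 T cell markers, Cd8b1 had one in each library (33, 51 and 63) and Cd8a in none.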

How the data were processed

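Open chromatin was measured by ATAC-seq in 3 libraries, 1 per sorted fraction. MACS2 2.1.0, SAMtools, Picard, Bowtie2 2.3.2, Trimmomatic 0.33, cutadapt 1.12 and bcl2fastq 2.17, with build mm10, are listed in the submitters' processing notes. How duplicate pools entered a list and any shift of reads were not given in the sources used here. Deposited lists hold a score (10 times −log10 q, cut to a whole number), a linear fold ratio over local background, −log10 p and −log10 q values, and the summit offset. The lists held 47963 divided, 41876 undivided and 44426 polyclonal peaks.

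From these, pileup and local background were recovered, taking fold as (pileup + 1)/(background + 1) and p as a Poisson tail. Pileups came out whole, to within 0.001, for 47958 of the 47963 divided peaks, for more than that share in each other library, and for every member peak. The recovery, merging and assignment were tested on simulated data. Read totals are unknown. Intervals of ratios are exact (Clopper-Pearson, 95%) and, with all others, cover counting error only, since fragments are not shown to be independent molecules. Gene spans came from RefSeq (GRCm38.p6, 21896 protein-coding genes). The table gives no exons, and introns and UTRs were not told apart. Protein sequences and a genome were not used here. The genes named were all members, a list of pathway genes, the 3 genes most alike, and in each comparison the member regions with the highest and lowest ratio among those with a −log10 q of at least 5 in either library. The members and lists were chosen with earlier results of these data known. Python 3.11.15, pandas 2.3.3 and scipy 1.17.1 were used. One marker gene is not reported here.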

Additional observations from a re-analysis of the deposited data

How the results depend on the processing

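Of 72 values for the counts and summed ratios under another setting, 57 stayed within 1.5 times the reported count or within the counting interval, and 15 did not. With peaks of −log10 q of at least 10 only, 28 member regions were left, 19 of them called in polyclonal cells, since fewer peaks enter. One-sided counts at the authors' threshold were 12 for divided and not undivided, 9 for divided and not polyclonal, 4 for undivided and not polyclonal and 9 for polyclonal and not undivided cells. At a −log10 q of at least 10 they were 2 for divided and not polyclonal, 1 for polyclonal and not divided and 0 for polyclonal and not undivided cells. The summed pileup ratio of divided over undivided cells, 1.07 (0.985 to 1.17) as reported, was 0.865 scaled by background, 1.29 unscaled and 0.977 with the authors' fold in place of the pileup. For divided over polyclonal cells it was 1.11 (1.02 to 1.20), and 0.942, 1.32 and 1.00 in the same order. Both turn direction with the scaling. The summed ratio of undivided over polyclonal cells was 1.01 (0.923 to 1.11) and stayed within that interval. These intervals pool fragments over regions and leave out the spread between regions. Merging across 100 bp gaps, assignment within 20 kb or by gene ends, the half-coverage rule and the depth limits moved no count by more than 1.5 times. No paired analysis was possible because each group is 1 library.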

Other observations

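Between Slamf6 and Vangl2 the regions nearer to Vangl2 were outside the rule, and their values are given here as they stand next to the last Slamf6 regions. At 26529 bp past the Slamf6 span (chr1:171975487-171976284) divided cells had 22 fragments, polyclonal cells 7 and undivided cells no peak. At 33136 bp divided cells alone had a peak, of 21 fragments, and at 34138 bp (chr1:171983096-171983882) divided cells had 25 fragments, undivided cells 7 and polyclonal cells 11. A region at 45761 bp had 9 fragments in polyclonal cells only, and one at 46399 bp had 14 in divided cells only. At 51530 bp, 35 bp from Vangl2, a gene of planar cell polarity, pileups were 39, 19 and 18 in divided, undivided and polyclonal cells. These regions were chosen after their values were seen, and which gene they serve was not tested.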
